A study of Mus musculus with 8 samples.

Results

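Resident Kupffer cells were followed here through 10 genes that mark them, *Clec4f*, *Vsig4*, *Cd5l*, *Timd4*, *Adgre1*, *C1qa*, *C1qb*, *C1qc*, *Csf1r* and *Spic*, in whole livers of *Rragc* S74N/+ (n = 4) and *Rragc*+/+ (n = 4) mice. The genes were chosen by name, with earlier results of these data known, and all 10 were present among the 14506 genes listed for these livers. *Rragc* encodes RagC, a GTPase that relays nutrient sufficiency to the kinase complex mTORC1, and the S74N change was knocked in on 1 allele in every cell of the mouse, together with silent changes. Blood cells and liver cells of *Rragc* S74N/+ mice therefore carried the same allele. *Rragc*+/+ replicates 1, 2 and 3 were 3 months old and replicate 4 was 2.5 months old. *Rragc* S74N/+ replicates 1 and 2 were 3 months old, replicate 3 was 2.5 months old and replicate 4 was 2 months old. Genotype, age and tissue are what the labels give for each liver, and nothing ties a replicate number of one genotype to the same number of the other.

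Kupffer cells are the macrophages of the liver. They sit in the sinusoids, where they take up bacteria, dying cells and worn red blood cells from the passing blood. They are seeded before birth and maintain themselves by division, with signals from stellate cells, endothelial cells and hepatocytes keeping their identity, and when the niche is emptied, monocytes from the blood can enter it and acquire the same genes, *Clec4f* early and *Timd4* late. In bulk tissue, fewer Kupffer cells and less RNA per Kupffer cell cannot be told apart.

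Between 4313076 and 6632108 reads per liver were recovered in listed genes, and 11174 genes with a mean normalized read count of at least 10 were tested. The 10 marker genes were all among them and were read in every liver, from 7 reads for *Spic* to 1497 for *Cd5l*. Together they took 0.0495% to 0.0870% of the reads of a liver. The hepatocyte gene *Alb* had a mean normalized read count of 91226 in *Rragc*+/+ and 151420 in *Rragc* S74N/+ livers and was at least 57178 in each of the 8, so the libraries carried a liver transcriptome as labelled. The first principal component of the 500 most variable genes, taken without the 10 markers, held 45.9% of the variance and placed the livers in the order *Rragc*+/+ replicate 4, *Rragc* S74N/+ replicate 3, *Rragc*+/+ replicates 1 and 2, *Rragc* S74N/+ replicate 2, *Rragc*+/+ replicate 3, *Rragc* S74N/+ replicates 1 and 4. The scores ran from -34.1 to 36.2, and the level of *C1qc* lay close to this order.

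Macrophage genes are commonly opened by the factor PU.1, the product of *Spi1*, whose binding sites hold the letters GAGGAA, read on the other strand as TTCCTC, and factors of the TFEB family, which mTORC1 keeps inactive, bind CACGTG. Promoters from RefSeq (GRCm38.p6, 250 bases before to 50 after a start) were found for 7 of the 10 genes, *Clec4f*, *Vsig4*, *Cd5l*, *Timd4*, *C1qb*, *C1qc* and *Spic*. GAGGAA on either strand was in 4 of these 7, and in 28.3% of all 27025 promoters. CACGTG, which reads the same on both strands, was in 0 of the 7 and in 7.24% of all promoters, so no match overlapped another. A match is a run of letters and not a measured site. The 4 promoters with GAGGAA are shown by the 90 bases before the start farthest upstream, beside that of *Clec4f*, the gene whose level went most against that of *C1qc*. Sequences run 5′ to 3′ on the strand of the gene, and capitals mark GAGGAA or TTCCTC.
Cd5l, chr3:87357791-87357880, forward strand: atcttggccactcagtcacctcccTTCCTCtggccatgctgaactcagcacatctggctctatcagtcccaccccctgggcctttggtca
C1qb, chr4:136886201-136886290, reverse strand: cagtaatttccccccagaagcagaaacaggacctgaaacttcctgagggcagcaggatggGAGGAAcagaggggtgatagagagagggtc
C1qc, chr4:136893066-136893155, reverse strand: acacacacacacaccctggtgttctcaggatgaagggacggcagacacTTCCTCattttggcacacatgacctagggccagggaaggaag
Vsig4, chrX:96293439-96293528, reverse strand: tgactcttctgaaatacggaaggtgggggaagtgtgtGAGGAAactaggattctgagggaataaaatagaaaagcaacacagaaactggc
Clec4f, chr6:83656188-83656277, reverse strand: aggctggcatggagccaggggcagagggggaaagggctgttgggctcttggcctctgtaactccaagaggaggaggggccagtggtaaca

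The comparison asked whether the resident macrophage signature of the liver differed between genotypes in young mice. At this age the study saw no inflammatory foci by histology, unlike in old mice. The study also quantified staining for myeloperoxidase and CD45 in young livers, and described myeloid inflammation as not yet evident. It did report inflammatory gene sets as enriched in young *Rragc* S74N/+ livers. The 10 genes did not move as a block. On the log2(normalized count + 1) scale, 7 were higher and 3 lower in *Rragc* S74N/+ livers, with fold changes from -0.38 for *Csf1r* to 1.03 for *C1qc*. Their median was 0.17, and the median of all tested genes was 0.01. By limma with Benjamini-Hochberg adjustment over all tested genes, 0 of the 10 passed 0.05, with a smallest adjusted p of 0.846, while 0.00895% of all tested genes passed (1 of 11174). The quasi-likelihood test of edgeR and DESeq2, run on the recovered whole reads, also placed 0 of the 10 past the threshold, with 0.00895% and 0.0895% of all tested genes past it. At an unadjusted p under 0.05, *C1qc* and *Adgre1* were higher and 0 were lower with limma, and 2 genes each were past it with edgeR and DESeq2. Over all tested genes 5.17% were past that level with limma, 2.37% higher and 2.80% lower, and 5.54% with edgeR and 6.01% with DESeq2. For 0 of the 10 genes were the genotypes free of overlap, against 2.94% of all tested genes. The plots of levels and of fold changes show this spread gene by gene.

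**Figure D1:**
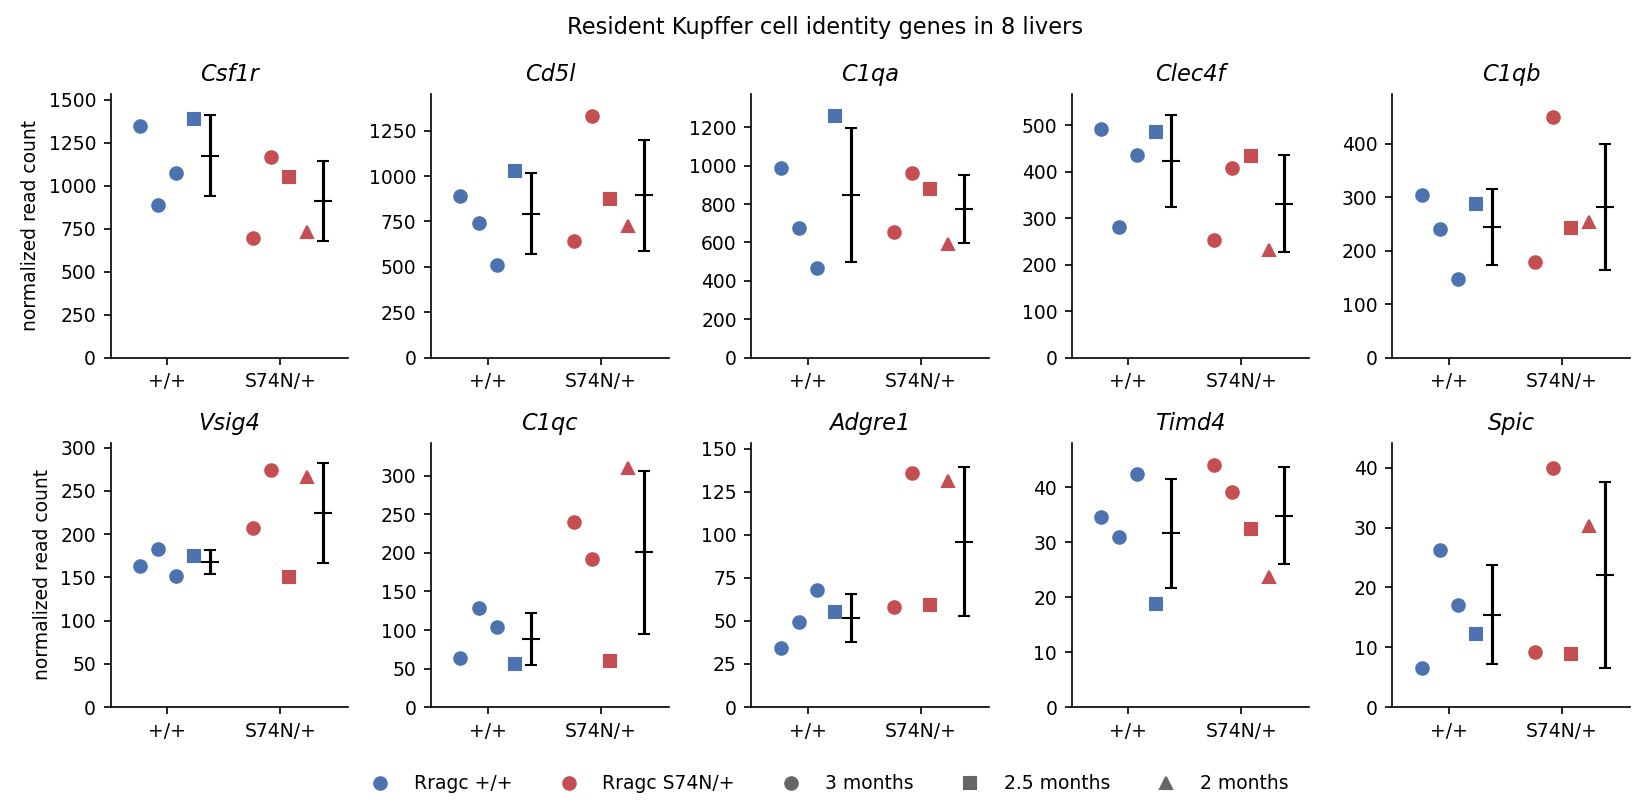
Normalized read count (vertical axis, from 0) of each of the 10 Kupffer cell genes in 4 *Rragc*+/+ (blue) and 4 *Rragc* S74N/+ (red) livers, with mean and SD as black bars and age as the shape of the point. The genotypes overlap in every panel, and the red points spread wider than the blue for *Vsig4*, *C1qc* and *Adgre1*.

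*C1qc* had the largest difference of the 10. It encodes the C chain of C1q, the first protein of the classical complement cascade, which Kupffer cells secrete. The gene lies at chr4:136889804-136893065 on the reverse strand of GRCm38. Its normalized read count was 64.3, 129, 103 and 56.1 in the *Rragc*+/+ livers against 240.55, 192, 60.2 and 311 in the *Rragc* S74N/+ livers, each in the order of replicates 1 to 4. *Rragc* S74N/+ replicates 1, 2 and 4 were above every *Rragc*+/+ liver, while replicate 3 lay within their range. The means were 88.2 ± 34.2 and 201 ± 106 (SD, n = 4 each). This gave a log2 fold change of 1.03 (standard error 0.45, 95% interval from 0.067 to 2.00, limma p = 0.0380, adjusted p = 0.846; exact two-sided permutation p = 0.143). Without *Rragc* S74N/+ replicate 3 the fold change was 1.53 (limma adjusted p = 0.253). With the first principal component as a covariate, an alternative chosen after the data were seen, it was 0.40 (limma adjusted p = 0.973).

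*Adgre1* encodes the adhesion receptor known from antibody staining as the classical surface marker of mouse macrophages, and lies at chr17:57358691-57483527 on the forward strand. It was at 34.5, 49.6, 67.9 and 55.1 normalized reads in the *Rragc*+/+ livers against 57.8, 136, 59.1 and 131 in the *Rragc* S74N/+ livers, each in the order of replicates 1 to 4. *Rragc* S74N/+ replicates 2 and 4 were high and the other two lay inside the *Rragc*+/+ range. The means were 51.8 ± 13.8 and 96.1 ± 43.5 (SD, n = 4 each). This gave a log2 fold change of 0.80 (standard error 0.35, 95% interval from 0.044 to 1.56, limma p = 0.0397, adjusted p = 0.846; exact two-sided permutation p = 0.114). It was 0.60 without *Rragc* S74N/+ replicate 2 and 0.64 with the first principal component as a covariate.

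*Vsig4* and *Clec4f* are the receptors most particular to Kupffer cells, and their log2 fold changes had opposite signs, neither of which passed a test. *Vsig4* (chrX:96247203-96293438, reverse strand), which captures complement-coated bacteria, was at 163, 183, 151 and 175 normalized reads in *Rragc*+/+ replicates 1 to 4, against 207, 274, 150.4 and 266 in the same order in *Rragc* S74N/+ livers. The same replicates 1, 2 and 4 that had high *C1qc* were above every *Rragc*+/+ liver for *Vsig4*, and replicate 3 was the lowest of the 8 livers. The log2 fold change was 0.38 (standard error 0.23, 95% interval from -0.13 to 0.88, exact two-sided permutation p = 0.171). *Clec4f* (chr6:83644542-83656187, reverse strand), a C-type lectin that binds galactose-bearing ligands, was at 491, 281, 436 and 485 in *Rragc*+/+ replicates 1 to 4, against 253, 407, 433 and 232 in the same order in *Rragc* S74N/+ livers. *Rragc* S74N/+ replicates 1 and 4 were below every *Rragc*+/+ liver, and replicates 2 and 3 were not. Its log2 fold change was -0.37 (standard error 0.27, 95% interval from -0.95 to 0.20, exact two-sided permutation p = 0.171), and -0.11 with the first principal component as a covariate.

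*Timd4* (chr11:46810800-46844332, forward strand) encodes a receptor for phosphatidylserine on dying cells and is characteristic of long-lived, embryo-derived Kupffer cells. Its normalized read count was 34.5, 30.9, 42.4 and 18.7 in *Rragc*+/+ replicates 1 to 4, against 44.1, 39.1, 32.3 and 23.7 in the same order in *Rragc* S74N/+ livers, from 20 to 48 reads. The groups overlapped over most of their range, and the log2 fold change was 0.15 (standard error 0.35). Because *Clec4f* marks Kupffer cells of either origin, the ratio of *Timd4* to *Clec4f* within a liver was compared too, after adding 1 to each normalized count. The log2 ratio was -3.72 ± 0.66 in *Rragc*+/+ against -3.20 ± 0.51 in *Rragc* S74N/+ livers (SD, n = 4 each). The difference of 0.53 was within the spread of the livers (exact two-sided permutation p = 0.343). It ran from 0.23 (without *Rragc*+/+ replicate 4) to 0.72 when single livers were omitted, and was 0.29 without *Rragc* S74N/+ replicate 1.

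*Csf1r*, the receptor through which *Csf1* and *Il34* keep macrophages alive, had the highest mean level of the 10 genes. It was at 1349, 888, 1076.5 and 1390.2 normalized reads in *Rragc*+/+ replicates 1 to 4, against 697, 1165, 1051 and 732 in the same order in *Rragc* S74N/+ livers. As for *Clec4f*, *Rragc* S74N/+ replicates 1 and 4 were the low livers and fell below every *Rragc*+/+ liver. The log2 fold change was -0.38 (standard error 0.23, 95% interval from -0.88 to 0.12, exact two-sided permutation p = 0.171), and it was -0.16 with the first principal component as a covariate. Of its ligands, *Csf1* was at 37.8 ± 11.8 and 23.9 ± 6.25 (SD, n = 4 each) in the respective genotypes, *Rragc*+/+ first, without overlap between groups and with a log2 fold change of -0.64 (standard error 0.35, limma adjusted p = 0.846). *Il34* was at 32.0 ± 20.5 and 31.5 ± 9.83 (SD, n = 4 each).

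*Spic* (chr10:88674772-88685015, reverse strand), a transcription factor of macrophages that recycle the iron of red blood cells, was the lowest of the 10 genes. It was at 6.53, 26.2, 17.0 and 12.1 normalized reads in *Rragc*+/+ replicates 1 to 4, against 9.18, 39.99, 8.92 and 30.2 in the same order in *Rragc* S74N/+ livers, from 7 to 45 reads. The highest liver had 6.13 times the level of the lowest, the widest range of the 10 genes, and the genotypes overlapped. Its log2 fold change was 0.35 (standard error 0.59), and the 95% interval ran from -0.93 to 1.64.

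*Cd5l* (chr3:87357881-87371073, forward strand) encodes a secreted scavenger-receptor-like protein that protects macrophages from death. Its normalized read count was 891, 743, 509 and 1027 in *Rragc*+/+ replicates 1 to 4, against 644, 1330.5, 874 and 728 in the same order in *Rragc* S74N/+ livers. The extremes were *Rragc* S74N/+ replicate 2 and *Rragc*+/+ replicate 3, and the rest of the 2 groups intermingled. *C1qb*, the B chain of C1q, had the same highest and lowest liver, at 304, 240.35, 147 and 287 in *Rragc*+/+ and 179.95, 451, 242 and 253 in *Rragc* S74N/+. *C1qa*, the A chain, was at 986, 673, 470 and 1257.5 in *Rragc*+/+ and at 654, 962, 879 and 592 in *Rragc* S74N/+. The log2 fold changes of *Cd5l*, *C1qb* and *C1qa* were 0.16, 0.17 and -0.07 with standard errors of 0.27, 0.31 and 0.29, and their 95% intervals reached from -0.42 to 0.75, from -0.49 to 0.83 and from -0.70 to 0.57.

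**Figure D2:**
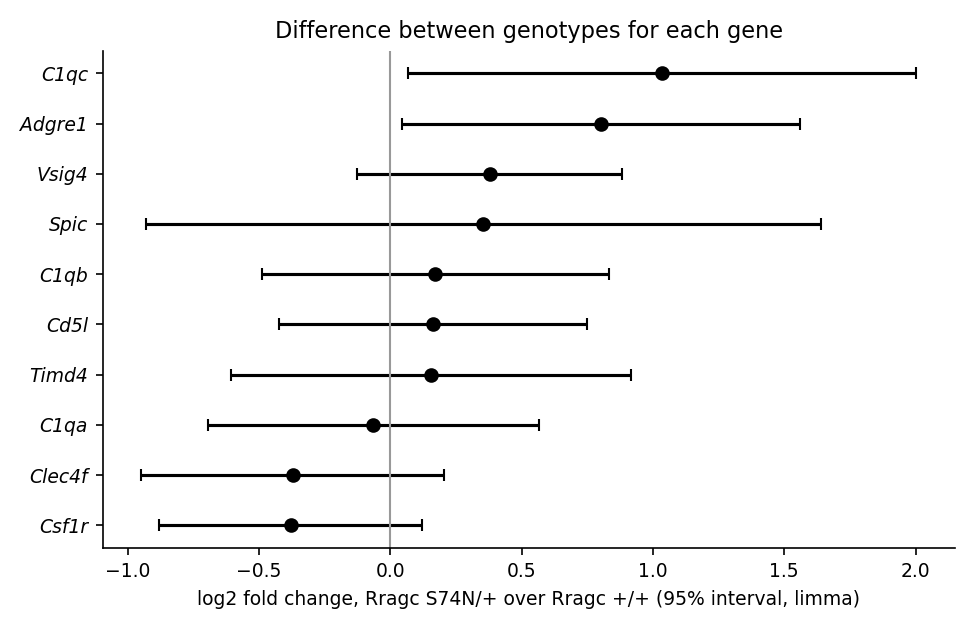
Log2 fold change of *Rragc* S74N/+ over *Rragc*+/+ (horizontal axis) for each of the 10 genes, with the 95% interval from limma over 8 livers as bars. The unadjusted intervals of *C1qc* and *Adgre1* begin just above 0, at 0.067 and 0.044, and those of the other 8 genes include 0.

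The 3 C1q chains are made by neighbouring genes and join into 1 protein, so their transcripts were compared within each liver. *C1qb*, *C1qc* and *C1qa* lie in that order on the reverse strand within 18675 bases of chromosome 4 (chr4:136880129-136898803), with 3616 and 2851 bases between neighbours. Libraries were read from the 3′ ends of transcripts, so the share of each chain was taken from read counts without scaling by length. *C1qc* made up 4.75%, 12.4%, 14.3% and 3.50% of C1q reads in *Rragc*+/+ replicates 1 to 4, against 22.4%, 12.0%, 5.09% and 26.9% in the same order in *Rragc* S74N/+ livers. With 509 to 1805 C1q reads per liver, the 95% Wilson intervals, which cover counting error only, were 2.73% to 4.48% at the lowest share and 24.6% to 29.3% at the highest. *Rragc* S74N/+ replicates 1 and 4 were high, *Rragc*+/+ replicates 1 and 4 and *Rragc* S74N/+ replicate 3 were low, and the other 3 livers lay between, so the shares were 8.74 ± 5.42% and 16.6 ± 9.89% (SD, n = 4 each) with overlap. The ratio of *C1qa* to *C1qc* reads ran from 1.91 to 22.4, and that of *C1qa* to *C1qb* from 2.13 to 4.38. The *C1qc* share was examined after these values were seen and is given as a description. Its order across livers was close to that of the first principal component, whose 3 lowest livers had the 3 lowest shares and whose 2 highest livers had the 2 highest. The 2 highest scores, 25.3 and 36.2, were those of *Rragc* S74N/+ replicates 1 and 4, while replicate 3 of that genotype was at -24.1. Score and genotype were thus partly tied, and the covariate fit above cannot separate them. The part of that component in the *C1qc* difference was not tested.

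**Figure D3:**
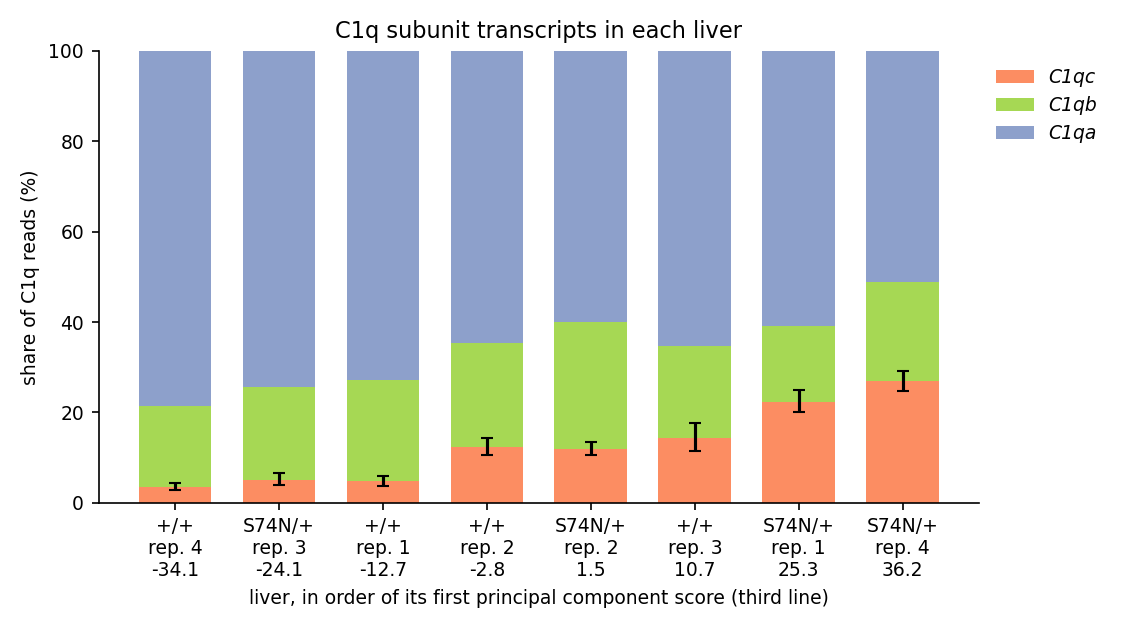
Share of C1q reads (vertical axis, %) from *C1qc*, *C1qb* and *C1qa* in each liver, with livers ordered from left to right by their first principal component score and 95% Wilson intervals on the *C1qc* share. *C1qc* takes 3.50% to 5.09% in the 3 livers at the left and 22.4% and 26.9% in the 2 at the right.

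The 10 genes were next compared pair by pair across livers. Of the 45 pairs, 23 had a positive and 22 a negative Pearson r over the 8 livers, with a median of 0.19 and a range from -0.85 to 0.96. After Benjamini-Hochberg adjustment over the 45 pairs, 2 pairs passed 0.05 by Pearson's r and 0 by Spearman's rho. *Clec4f* and *Csf1r* had r = 0.95 (permutation p = 0.00057, adjusted p = 0.0212) and rho = 0.88 (permutation p = 0.00724, adjusted p = 0.109). Their r was 0.87 without the 2 livers farthest from the median of *Clec4f*, and 0.94 on deviations from the genotype means. *Cd5l* and *C1qb* had r = 0.96 (permutation p = 0.000942, adjusted p = 0.0212) and rho = 0.90 (permutation p = 0.00456, adjusted p = 0.103). Their r was 0.82 without the 2 livers farthest from the median of *Cd5l*, and 0.96 on deviations from the genotype means. *Clec4f* and *C1qc* had the lowest r, -0.85 (permutation p = 0.0163, adjusted p = 0.122), and rho = -0.86 (permutation p = 0.0107, adjusted p = 0.121). Their r was -0.59 without the 2 livers farthest from the median of *Clec4f*. Among the C1q chains r was 0.74 for *C1qa* with *C1qb* and -0.54 for *C1qa* with *C1qc*, and neither passed adjustment (permutation p = 0.0356 and 0.163, adjusted p = 0.178 and 0.459). These levels share a library and a size factor within each liver. *Rragc* S74N/+ replicate 2 was the highest liver for 5 of the 10 genes, *Cd5l*, *C1qb*, *Vsig4*, *Adgre1* and *Spic*, and *Rragc*+/+ replicate 3, the library with the fewest reads, was the lowest for 3, *Cd5l*, *C1qa* and *C1qb*. Summed over the 10 genes, the normalized read count was 3838 ± 840 in *Rragc*+/+ against 3768 ± 883 in *Rragc* S74N/+ livers (SD, n = 4 each).

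**Figure D4:**
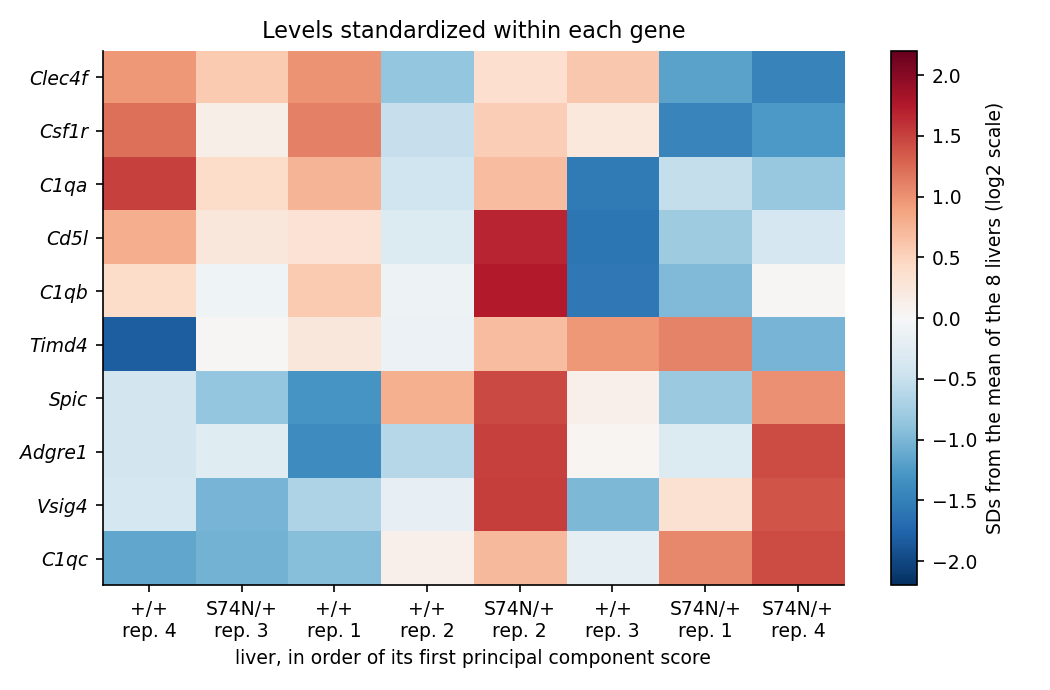
Level of each of the 10 genes (rows) in each liver (columns, ordered by first principal component score), as SDs from the gene's mean over the 8 livers on the log2 scale. *Clec4f* and *Csf1r* are lowest in the 2 livers at the right, where *C1qc* is highest, and *Rragc* S74N/+ replicate 2 is high for most genes.

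In order of mean normalized read count over the 8 livers, the genes were *Csf1r* (1043.5), *Cd5l* (843), *C1qa* (809), *Clec4f* (377), *C1qb* (263), *Vsig4* (196), *C1qc* (145), *Adgre1* (73.9), *Timd4* (33.2) and *Spic* (18.8). Every rank was shared by the 2 genotypes except that *C1qa* stood above *Cd5l* in *Rragc*+/+ livers. *C1qa* exceeded *Clec4f*, and *C1qc* exceeded *Adgre1*, in 8 of 8 livers. *Cd5l* exceeded *C1qa* in 4 of 8 and *C1qb* exceeded *Vsig4* in 5 of 8, so those neighbours did not differ beyond their spread. The other 5 pairs of neighbours kept their order in 6 or 7 livers. These levels are read counts from 3′ ends and are not scaled by length.

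Further genes of macrophages and of other liver cells were set beside the 10 in 18 lists, written with earlier results of these data known. Of their 198 distinct genes 147 were tested and 0 passed adjustment with limma, while 16 were higher and 4 lower at an unadjusted p under 0.05, a level at which 2.37% of all tested genes were higher and 2.80% lower. The same shares are the background of each list count that follows. Other genes of Kupffer cells also moved both ways, with a median log2 fold change of 0.16 over 15 tested genes. At an unadjusted p under 0.05, 2 were higher, *Marco* and *Sdc3* (1.13), and 2 were lower, *Fcna* and *Cd163*. *Marco*, a scavenger receptor for bacteria, ranged from 20.5 to 25.5 normalized reads in *Rragc*+/+ and from 37.9 to 125 in *Rragc* S74N/+ livers, with no overlap and a log2 fold change of 1.82 (standard error 0.37, limma adjusted p = 0.846). Within *Rragc* S74N/+ its lowest liver was replicate 3, as for *C1qc* and *Vsig4*. *Fcna*, a ficolin that starts the lectin pathway of complement, was at 451 ± 123 and 239 ± 65.8 (SD, n = 4 each), with a fold change of -0.91 on the log2 scale (standard error 0.28, limma adjusted p = 0.846). *Cd163*, the receptor for haemoglobin bound to haptoglobin, was at 68.7 ± 34.6 and 33.0 ± 9.94 (SD, n = 4 each), with a fold change of -0.97 on the log2 scale (standard error 0.38, limma adjusted p = 0.846), and its groups did not overlap.

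Genes of macrophages in general had a median log2 fold change of 0.30, with 3 of 15 tested genes higher and 0 lower at an unadjusted p under 0.05. The 3 were *Ctsc*, *Tyrobp* and *Lyz2*, at 0.92, 0.73 and 0.74, and the summed normalized read count of the list was 1655 to 1969 in *Rragc*+/+ and 2093 to 2746 in *Rragc* S74N/+ livers. Without *Rragc* S74N/+ replicate 2 the list median was 0.071, with 1 gene at that level. Of 13 macrophage transcription factors 1, *Irf8*, was higher at an unadjusted p under 0.05, at 68.0 ± 17.4 and 117 ± 28.7 (SD, n = 4 each), with a log2 fold change of 0.77 (standard error 0.27, limma adjusted p = 0.846). *Spi1* (0.33), *Nr1h3*, the receptor LXR alpha that holds Kupffer cell identity (-0.13), and *Id3* (0.39) did not pass an unadjusted 0.05. Among 13 tested signals of the niche, 7 were higher and 6 lower by sign, and at an unadjusted p under 0.05 0 were higher and 1 lower. The 1 was *Gdf2*, a bone morphogenetic protein of stellate cells, at 79.3 ± 10.2 and 50.1 ± 17.1 (SD, n = 4 each). Of the C1 proteases and later complement factors 0 of 10 passed an unadjusted 0.05, among them *C1ra* at 0.34, and their median was 0.23. For heme and iron handling the median was 0.10 with 1 of 14 past it, *Cd163*, and for uptake of dying cells 0.01 with 1 of 11, *Gas6*, a ligand of *Axl*, higher at 1.46.

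Markers of other cells were examined because the 10 genes share a tissue with them. Of genes of monocytes and monocyte-derived macrophages, 10 of 17 were tested and 3, *Plac8*, *Ms4a6c* and *Cd9*, were higher at an unadjusted p under 0.05, with log2 fold changes of 2.15, 1.62 and 1.16 from low levels of 9.28, 9.46 and 18.2 normalized reads in *Rragc*+/+ livers. The list median was 0.53. Its summed level, 3032 to 4762 in *Rragc*+/+ and 2291 to 4550 in *Rragc* S74N/+ livers, was mostly *F10*, a clotting factor of hepatocytes as well. *Ccr2*, the receptor that calls monocytes out of the marrow, was at 7.25 ± 3.59 and 13.6 ± 5.09 (SD, n = 4 each). General leukocyte genes had a median of 0.45 and a summed level of 413 to 580 and 530 to 685. Of 7 tested, 2 were higher and 0 lower at an unadjusted p under 0.05, *Cd53* and *Ptprc*. *Cd53*, from a low level of 8.54 normalized reads in *Rragc*+/+ livers, was 1.40 higher on the log2 scale (standard error 0.54, limma adjusted p = 0.846). *Ptprc*, which encodes CD45, was 0.56 higher on that scale (standard error 0.26, limma adjusted p = 0.846). B and plasma cell genes, with 2 of 8 tested, summed to 86.0 to 157 and 199 to 300. Of the 2 tested, 1 was higher and 0 lower at an unadjusted p under 0.05. This was *Igkc*, 1.31 higher on the same scale (limma adjusted p = 0.846). Only 3 of 12 neutrophil genes were tested, 7 of the 12 including *Ly6g* were not analysed here, and the summed levels were 48.1 to 144 and 46.8 to 168. Dendritic cell genes (3 of 10 tested) and T and NK cell genes (3 of 10 tested) had medians of 0.10 and 0.13 with 0 past an unadjusted 0.05.

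Sinusoidal endothelial genes summed to 1362 to 1693 and 1380 to 1757 normalized reads, with a median log2 fold change of 0.12. Of 12 tested genes 7 were higher and 5 lower. Among the 5 were *Stab1* (-0.27), *Stab2* (-0.24), *Fcgr2b* (-0.16) and *Clec4g* (-0.12). At an unadjusted p under 0.05, *Lyve1* and *Pecam1* were 1.03 and 0.88 higher on the log2 scale and 0 genes were lower. Stellate cell genes had a median of 0.00, *Col1a1* 0.96 higher and *Ecm1* 0.65 lower on the log2 scale. Hepatocyte, bile duct and red blood cell genes had medians of 0.36, 0.27 and -0.12 with 0 past it. The part of these cells in the levels of the 10 Kupffer cell genes was not tested.

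**Figure D5:**
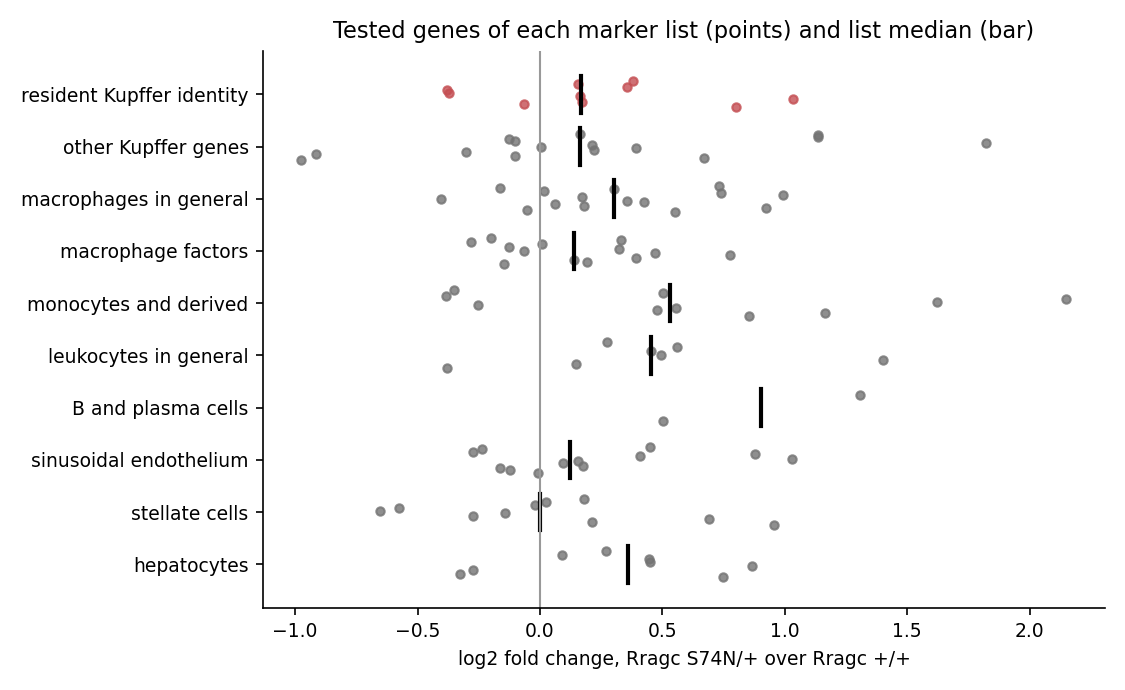
Log2 fold change of *Rragc* S74N/+ over *Rragc*+/+ (horizontal axis) for each tested gene (points) of the 10 Kupffer cell genes (red) and 9 of the other lists (grey), with the list median as a bar. Kupffer cell genes lie on both sides of 0, and *Marco* and *Plac8* are the points farthest to the right.

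The mean standardized log2 level of the 10 genes was compared, as a description, with 6909 other genes with a mean of at least 50. The most alike over the 8 livers were *Fpr2*, a receptor for formylated peptides and resolving lipids (r = 0.96), *Axl*, a receptor for the uptake of dying cells (0.92), and *Pml*, a nuclear body protein (0.91), followed by *Rnf111*, *Zfx*, *Pam*, *Sbno2* and *Cfp* (0.84). All 8 were highest in *Rragc* S74N/+ replicate 2, as was the mean of the 10 genes, and the likeness was not computed without that liver. On deviations from the genotype means *Fpr2*, *Axl* and *Pml* were again among the 8 most alike, with r of 0.97, 0.92 and 0.94, beside *Mkl2* (0.98), *Lrba* (0.95), *Napa*, *Lrrc8d* and *Rab26os* (0.90). These genes and the 10 come from the same libraries.

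By age, the genotypes could be set side by side at 3 months (3 *Rragc*+/+ and 2 *Rragc* S74N/+ livers) and at 2.5 months (1 each). *C1qc* averaged 98.9 and 216 normalized reads at 3 months and was at 56.1 and 60.2 at 2.5 months. *Adgre1* averaged 50.7 and 96.9 at 3 months and was at 55.1 and 59.1 at 2.5 months. The 2 *Rragc* S74N/+ livers behind its 3-month mean were at 57.8 and 136, the lower of them inside the *Rragc*+/+ range. *Vsig4* averaged 166 and 241 at 3 months and was at 175 and 150.4 at 2.5 months. For these 3 genes the difference seen at 3 months had no counterpart in the single pair of 2.5-month-old livers, a contrast that was not tested. The 3-month means of *Clec4f* and *Csf1r* were lower in *Rragc* S74N/+ livers, at 330.2 against 402.5 and 931 against 1104. The livers behind these means overlapped, since *Rragc* S74N/+ replicate 2 (407 and 1165) exceeded *Rragc*+/+ replicate 2 (281 and 888). In 3-month-old mice alone the log2 fold changes were -0.29 and -0.27 (limma adjusted p = 0.899 and 0.890). At 2.5 months the single *Rragc* S74N/+ liver was also lower for both genes, at 433 against 485 and 1051 against 1390.2. The likeness of the 2 ages was not tested. The 2-month-old liver, *Rragc* S74N/+ replicate 4, had no *Rragc*+/+ mouse of its age, and it had the highest *C1qc* and the lowest *Clec4f* of the 8, so age and this animal cannot be told apart.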

How the data were processed

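RNA from 8 whole livers was sequenced from the 3′ end of transcripts (QuantSeq), without stated molecular identifiers. Alignment by the authors used TopHat2 2.0.10, Bowtie 1.0.0 and SAMtools 0.1.19 on GRCm38. They counted reads by strand with HTSeq 0.6.1 against GENCODE vM20, and scaled counts with DESeq. The deposited signal gives normalized read counts, of which 100% were whole multiples of 1 read (tolerance 1e-06), so reads were recovered. Size factors were 0.707 to 1.23.

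Genes with a mean of at least 10 were compared with limma 3.58.1 (R 4.3.3, trended empirical Bayes) on log2(normalized count + 1), with genotype as the only term, Benjamini-Hochberg adjustment over 11174 genes and a threshold of 0.05. This scale understates changes of low genes. Single genes also had an exact two-sided permutation test over 70 labellings, with a smallest possible p of 0.0286. edgeR 4.0.16 and DESeq2 1.42.0 on recovered reads, other pseudocounts, filters, scalings and terms, and omission of each liver were alternatives. Scripts were tested on simulated data. Labels give each liver as its own sample, so p-values measure the spread between these livers.

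Gene coordinates are from GENCODE M21 on GRCm38. The 10 genes and all lists were chosen with earlier results of these data known. Named beside the 10 genes were *Marco*, *Ptprc*, the 2 tested genes of a list with the smallest p, and the 8 genes most alike; others were chosen after their values were seen.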

Additional observations from a re-analysis of the deposited data

Results flagged for a closer look

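Dixon's test was run on 13 values in 26 groups of 4 livers. It set 0 livers apart from the other 3 of their genotype, where chance would set apart about 1.3.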

How the results depend on the processing

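The count of the 10 genes past the adjusted threshold was 0 under every alternative run and with each liver omitted. The count of the 10 at an unadjusted p under 0.05 was 2 with limma, where 578 of all 11174 tested genes were past that level. It was 0 without the trend (603 of all genes past it) and 0 with age in months as a covariate (415). With the first principal component as a covariate, chosen after the data were seen, it was 0 (575). It was 1 with age as a factor (632) and 1 in 3-month-old mice alone (640 of 11147). With array weights it was 3, *C1qc*, *Adgre1* and *Vsig4*, where 1237 of all 11174 tested genes were past that level. It ran from 0 to 3 with single livers omitted, at 3 without *Rragc* S74N/+ replicate 3, where 1682 of 11182 genes were past it, and at 0 without *Rragc*+/+ replicate 1 or 4 or *Rragc* S74N/+ replicate 2 or 4, where 334, 435, 543 and 312 genes were. The count over all genes, 1 with limma, was 0 without the trend, 0 with age as a covariate, 0 in 3-month-old mice, 3 with age as a factor and 10 with DESeq2, and ran from 0 to 2 with livers omitted. The causes were not tested, and the subsets also held fewer livers. The median log2 fold change of the 10 genes ran from 0.16 to 0.39 under the alternatives and from -0.03 (without *Rragc* S74N/+ replicate 2) to 0.33 with livers omitted. *C1qa* turned to 0.0072 with age as a factor, 0.28 with the principal component and 0.23 in 3-month-old mice. With livers omitted the log2 fold change ran from -0.32 to 0.16 for *C1qa*, -0.047 to 0.30 for *Cd5l*, -0.083 to 0.36 for *C1qb*, -0.069 to 0.32 for *Timd4*, -0.017 to 0.67 for *Spic* and 0.75 to 1.53 for *C1qc*. It ran from -0.56 (without *Rragc*+/+ replicate 2) to -0.22 (without *Rragc* S74N/+ replicate 4) for *Clec4f*, from -0.51 to -0.26 for *Csf1r*, from 0.27 to 0.56 (without *Rragc* S74N/+ replicate 3, limma adjusted p = 0.274) for *Vsig4* and from 0.60 to 1.003 for *Adgre1*. A filter at a mean of 50 left out *Timd4* and *Spic*, whose few reads limit what could be seen. No paired analysis was possible because replicate numbers only name livers in sample order and link no mice across genotypes.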
